A study of Sus scrofa with 55 samples.

Results

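The values described here are those of 10 genes of follicular steroid synthesis and inhibin signalling, picked by symbol from the 25880 gene IDs of a count table of single pig oocytes. They are CYP11A1, CYP17A1, STAR, FDX1 and HSD17B1 of steroid synthesis, INHA, INHBA, INHBB and FST of the inhibin and activin system, and IHH, a hedgehog ligand. All 10 symbols were found, each with a single ID. In the antral follicle, theca cells take up cholesterol and make androgens, and granulosa cells turn these into estrogens. Granulosa cells also make the alpha and beta subunits that pair into inhibin or activin, and follistatin, which binds activin. Indian hedgehog from granulosa cells signals to the theca in mice. Apart from FDX1, which also serves other mitochondrial cytochromes, the genes are known mainly as products of the somatic follicle wall rather than of the oocyte.

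The study asked how oocytes change over antral follicle growth. Cytoplasmic RNA of 55 oocytes was read by Smart-seq2, which copies and amplifies whole transcripts of 1 cell, over 16 PCR cycles, after the genomic DNA had been spun down. Stages 1 to 5 gave 11, 12, 11, 11 and 10 oocytes. They came from 4 wild-type Landrace and Yorkshire gilts aged 208 to 210 days, which had all received 5 IU of pregnant mare serum gonadotropin 48 h before the ovaries were taken, so no untreated animal is among them. Gilt 803 gave 20 oocytes, gilt 201 gave 14, gilt 205 gave 9 and gilt 801 gave 12, none of the last at stage 5. The labels number the stages without giving follicle sizes.

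The libraries held 151104 to 38282850 counts, 12139540 at the median, and 3 oocytes, all of gilt 803, lay under 1000000. The label of oocyte was checked against 11 markers. GDF9, ZP3 and ZP4, an oocyte growth factor and egg coat proteins, had counts in all 55 libraries, and the others in 54 (ZP2, KIT) down to 30 (DDX4). The summed level of these markers was 151 CPM in stage 5 gilt 803 oocyte 1 and 159 in stage 2 gilt 803 oocyte 3. The median oocyte had 1119 CPM in gilt 803, 12900 in gilt 201, 21560 in gilt 205 and 24360 in gilt 801. A count alone thus does not show how much of a library is oocyte RNA. Granulosa and cumulus markers (11 of 13 listed genes with an ID, the 10 genes of interest left out) held more counts than oocyte markers in 13 libraries, 12 of gilt 803 and 1 of gilt 801. Their summed level was 5781 ± 3633 CPM (counts per 1000000) in gilt 803 (SD over 5 stage sums), against 150 ± 169 in gilt 201, 298 ± 571 in gilt 205 and 1859 ± 2814 in gilt 801 (4 sums). AMH, a granulosa hormone on that list, was at 0 in every oocyte. The 13 mitochondrially encoded genes held 241000 ± 211900 CPM in gilt 803, 816300 ± 32680 in gilt 201 and 688800 ± 285400 in gilt 205 (SD, 5 stage sums each). In gilt 801 they held 481000 ± 191400 CPM (4 sums). Printed CPM are shares of totals that include these counts, so they do not compare gilts at an equal mitochondrial share. The part of this share in the printed gilt differences was not tested. A trio of gilt 801 oocytes, 1 of stage 2 and 2 of stage 4, resembled each other more than any other libraries did (r of log2(CPM + 1) from 0.986 to 0.991, next pair 0.954). Sums of CYP11A1, FDX1, INHA and INHBA that the trio moved by over 1.5 times are also given without it. Calls of the 10 genes that the trio or the granulosa-rich libraries ended are given without them as well. The number of somatic cells or fragments carried into a library and the RNA in each cannot be told apart.

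Of the 10 genes, INHA was read most: it had 679568 counts in all, against 269217 for CYP11A1 and 2194 for CYP17A1. INHBA had counts in 53 oocytes, INHA in 52, FDX1 in 49, HSD17B1 in 48, FST in 47, CYP11A1 in 42, INHBB in 41, STAR in 27, IHH in 22 and CYP17A1 in 9. At 100 CPM or more, INHA was found in 26 oocytes, INHBA in 18, CYP11A1 in 17, FDX1 and HSD17B1 in 16 each, FST in 13, INHBB in 6, IHH in 4, STAR in 3 and CYP17A1 in 0. A gene without a count could still have reached 0.247 CPM in the median library, the level of 3 counts. On the deposited length-scaled values, which allow genes to be ranked within an oocyte, INHA was the highest of 9 of these genes in 32 of 55 oocytes. On the same scale CYP11A1 led in 7 oocytes, FST in 7, FDX1 in 6, HSD17B1 in 2 and INHBA in 1. STAR was left out of this ranking because the tables disagreed on it: of 28 oocytes with 0 STAR counts, 26 had a length-scaled value above 0, reaching 18.95. Over all genes, 6.157% of the values with 0 counts were above 0 in the length-scaled table.

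**Figure D1:**
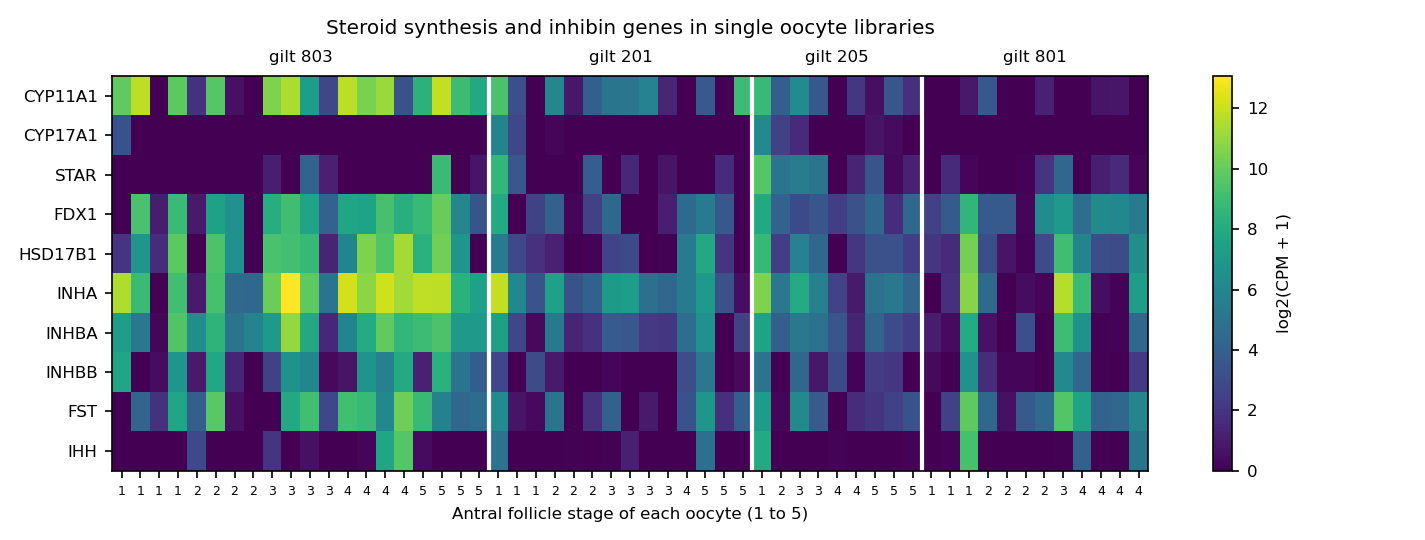
Level of each of the 10 genes as log2(CPM + 1), by colour, in each oocyte, with oocytes grouped by gilt (gilt 803 at the left) and ordered by stage within a gilt. High values of CYP11A1, FDX1, HSD17B1, INHA, INHBA, INHBB and FST cluster in gilt 803, while CYP17A1 has counts in 9 oocytes only.

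CYP11A1 (ENSSSCG00000025273), the side-chain cleavage enzyme that turns cholesterol into pregnenolone, was the gene that separated the gilts most clearly. Summed over the oocytes of a stage, it had 434.5, 538, 1540, 1759 and 954.6 CPM at stages 1 to 5 in gilt 803. The same sums were 213, 18.3, 27.7, 0 and 151 CPM in gilt 201, 443.5, 14.4, 42.6, 1.62 and 4.25 CPM in gilt 205, and 0.146, 3.41, 0 and 0.51 CPM at stages 1 to 4 in gilt 801. All but 1 of the gilt 803 sums lay above every other sum, and stage 1 of gilt 205 lay just above the lowest of them. Single oocytes carried several of these sums: without oocyte 2 of the stage, gilt 803 had 1.25 CPM at stage 2, 378 at stage 3 and 304 at stage 5. Without oocyte 4 its stage 1 sum was 166 CPM. Gilt 201 had 5.14 CPM at stage 1 without oocyte 1 and 5.23 at stage 5 without oocyte 3. Of all CYP11A1 counts, 90.7% were in gilt 803, which held 14 of the 17 oocytes at 100 CPM or more. Gilt 801 stood at the other end, with counts in 5 of 12 oocytes and at most 10.8 CPM in any of them, and its stage 4 sum was 0 without the 3 alike oocytes.

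FDX1 (ENSSSCG00000035945), the ferredoxin that passes electrons to CYP11A1, had 190, 142, 326, 333 and 313 CPM at stages 1 to 5 in gilt 803. In gilt 201 it had 85.1, 5, 5.89, 21.2 and 17.4 CPM, in gilt 205 246, 16, 8.58, 6.42 and 13.8 CPM, and in gilt 801 72.4, 38.3, 136 and 59.8 CPM at stages 1 to 4. The gilts overlapped through stage 1 of gilt 205. Unlike CYP11A1, FDX1 was present in all 12 oocytes of gilt 801, among them the 3 alike libraries at 67 to 79.2 CPM. Without these 3 the gilt 801 sums were 8.88 CPM at stage 2 and 33.2 CPM at stage 4. In gilt 803, without oocyte 2 of the stage, the sums were 58.2 CPM at stage 2, 143 at stage 3 and 139 at stage 5. Its stage 1 sum was 22.2 CPM without oocyte 4. The stage 1 sum was 1.76 CPM in gilt 201 without oocyte 1 and 7.18 CPM in gilt 801 without oocyte 3. FDX1 serves other mitochondrial cytochromes as well.

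An F test among the gilts, in a model of stage and gilt across all genes (edgeR quasi-likelihood, Benjamini-Hochberg adjusted p under 0.05), called 2 of the 10 genes, against 2.17% of the 15637 genes tested. They were CYP11A1 (adjusted p = 0.00736) and CYP17A1 (adjusted p = 0.0096). The gilt means were 1045 ± 590 CPM of CYP11A1 in gilt 803, 82.1 ± 94.6 in gilt 201, 101 ± 192 in gilt 205 (SD, 5 stage sums each) and 1.02 ± 1.61 in gilt 801 (4 sums). Both calls hung on single oocytes: CYP11A1 had an adjusted p of 0.0537 without stage 2 gilt 801 oocyte 4, and CYP17A1 of 0.0647 without stage 2 gilt 205 oocyte 1. CYP11A1 was also not called without gilt 801 (adjusted p = 0.139), without gilt 803 (0.0924), without the 3 alike oocytes (0.0734) or without the granulosa-rich oocytes (0.623). CYP17A1 was not called without gilt 205 (0.482), without gilt 803 (0.0765), without the granulosa-rich oocytes (0.0659), without stage in the model (0.0708) or by DESeq2 (0.255). On the other side, 6 members were called without gilt 201, beside 3.35% of all genes, the 4 further ones being STAR, HSD17B1, INHBA and FST. Without stage 3 gilt 801 oocyte 1 INHA and INHBA were called as well.

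The comparison of gilt 803 with the mean of the other gilts was added after gilt 803 had been seen to differ, so its p-values describe a difference already known. It called 3 of the 10 genes, all higher in gilt 803, against 4.68% of all genes called, 4.4% higher and 0.281% lower. CYP11A1 was higher by 5.80 ± 1.01 log2 units (SE, edgeR adjusted p = 0.0011), INHBA by 2.41 ± 0.606 (0.018) and FDX1 by 1.94 ± 0.5 (0.0206). The other fitted differences were 2.98 ± 0.883 for INHA (adjusted p = 0.0501), 2.86 ± 0.856 for HSD17B1 (0.053), 2.98 ± 0.908 for FST (0.0584), 3.43 ± 1.09 for INHBB (0.0732) and 3.13 ± 1.83 for IHH (0.402). The fitted difference of STAR was -4.08 ± 2.33 (adjusted p = 0.387), not called by edgeR or limma-voom (0.132) but called lower by DESeq2 (-4.36 ± 1.33, adjusted p = 0.0105) and by edgeR without a low-count filter (-4.06 ± 1.3, 0.0379). That of CYP17A1 could not be estimated because gilt 801 had 0 counts. The median over the 10 genes was 2.92, beside 0.11 over all genes tested. Without the 13 granulosa-rich oocytes none of the 10 was called, at 0.86 ± 1.34 for CYP11A1, 0.97 ± 1.1 for INHBA and -1.03 ± 0.912 for FDX1, and edgeR then called 7 of 14660 genes. Without the 3 alike oocytes the same 3 genes were called, beside 3.92% of all genes. Without gilt 205 only CYP11A1 was called, beside 0.736% of all genes. Without gilt 801 only INHBA was called, beside 3% (edgeR adjusted p = 0.0634 for CYP11A1 and 0.0537 for FDX1). With stage left out of the model INHBA was not called (0.0558). With each of the 55 oocytes left out in turn, CYP11A1 was called in all 55 fits, and INHBA and FDX1 in 52. The 3 fits that lost both left out stage 1 oocyte 4, stage 2 oocyte 2 or stage 3 oocyte 2 of gilt 803. INHA crossed the threshold in 22 fits, at adjusted p from 0.00546 to 0.203. In the same comparison 5 of 9 tested granulosa and cumulus markers were called higher, 5 of 11 oocyte markers lower and 6 of 13 mitochondrially encoded genes lower. Blood, immune and endothelial markers were called higher in 3 of 14 and theca and stroma markers in 1 of 11. The part of these markers in the gilt difference was not tested. The fit without the granulosa-rich oocytes cannot decide it, because those oocytes were picked by markers that went with the 3 called genes. Across all oocytes, r with the granulosa and cumulus sum was 0.574 for CYP11A1, 0.677 for FDX1 and 0.874 for INHBA. That fit also lost 12 oocytes of gilt 803, its whole stage 4 among them.

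**Figure D2:**
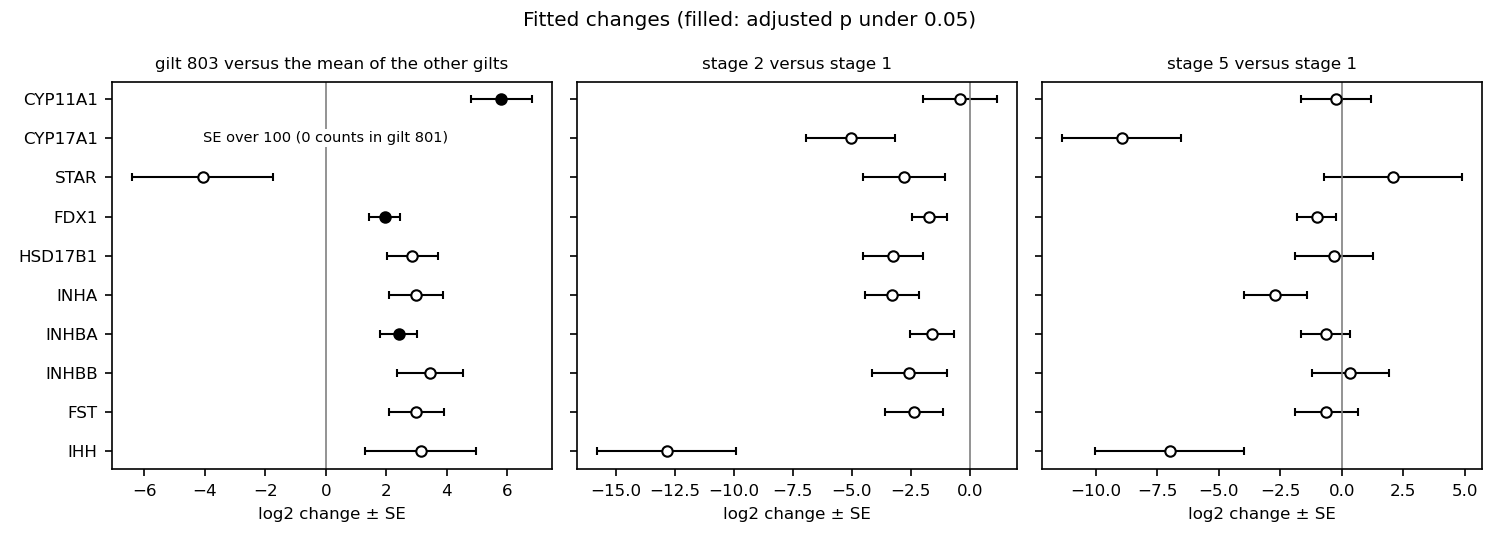
Fitted log2 differences (points) with their SE (bars) of the 10 genes for gilt 803 against the mean of the other gilts, stage 2 against stage 1 and stage 5 against stage 1. Filled points, those of CYP11A1, FDX1 and INHBA in the gilt panel, had an edgeR adjusted p under 0.05 and open points did not. CYP17A1 has no point in the gilt panel because its SE was over 100.

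CYP17A1 (ENSSSCG00000010591), the enzyme with which theca cells make androgens, was found almost wholly at stage 1. Of its 2194 counts, 93.5% were at stage 1 and 61.9% in a single library, stage 1 gilt 205 oocyte 1, at 75.1 CPM. The other high oocyte was stage 1 gilt 201 oocyte 1, at 59.3 CPM, followed by 8.74 CPM in stage 1 gilt 803 oocyte 1, which rests on 3 counts, and 6 CPM in stage 1 gilt 201 oocyte 2. The highest oocytes of stages 2 to 5 had 4.79, 1.97, 0 and 0.613 CPM. All 12 oocytes of gilt 801 had 0 counts. Over the gilt sums of stages 1 to 4 the means were 24.5 ± 35.4, 1.2 ± 2.39, 0.221 ± 0.442 and 0 CPM (SD, n = 4 gilts), and that of stage 5 was 0.114 ± 0.198 CPM (n = 3). The median oocyte was at 0 in every stage, so the stage means stand on few oocytes: without gilt 205 oocyte 1 of the stage, the stage 2 mean was 0.00779 ± 0.0135 CPM (n = 3) and that of stage 3 was 0.

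CYP17A1 had the steepest fitted change of the 10 genes over the stages, at -2.08 ± 0.446 log2 units per stage, but it did not pass (edgeR adjusted p = 0.166). DESeq2 called this trend (adjusted p = 0.000452) and limma-voom did not (0.173). The fitted change was -8.95 ± 2.41 for stage 5 against stage 1 (edgeR adjusted p = 0.904), and without gilt 201 it was -5.88. Such sizes depend on the prior count of the fit, since many sums are at 0. Without stage 1 gilt 205 oocyte 1, the only stage 1 oocyte of its gilt, the stage 1 mean was 7.58 ± 12.9 CPM over 3 gilts.

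STAR (ENSSSCG00000034942), which moves cholesterol into the mitochondrion, was high in the same pair of stage 1 oocytes, at 788.7 CPM in gilt 205 oocyte 1 and 398 CPM in gilt 201 oocyte 1. Another oocyte stood apart at the far end of the series, stage 5 gilt 803 oocyte 2 with 487 CPM and no CYP17A1 count. All other oocytes lay at 46.1 CPM or lower. The stage means were 232 ± 377, 9.78 ± 15, 15.6 ± 17.4 and 0.504 ± 0.62 CPM at stages 1 to 4 (SD, n = 4 gilts) and 32.5 ± 52.1 CPM at stage 5 (n = 3). The stage 1 mean was 46.1 ± 79.4 CPM without gilt 205 oocyte 1 (n = 3), the stage 2 mean 2.41 ± 3.16 CPM without gilt 205 oocyte 1 (n = 3), and the stage 5 mean 1.75 ± 2.05 CPM without gilt 803 oocyte 2. The fitted changes were -5.73 ± 1.95 for stage 4 against stage 3 and 9.45 ± 2.98 for stage 5 against stage 4, neither past the edgeR threshold (adjusted p = 0.998 and 1). Gilt 803 had 0 STAR counts in 15 of 20 oocytes, although 14 of its oocytes had 100 CPM or more of CYP11A1. The STAR values carry the disagreement between tables given above.

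The 2 oocytes highest in CYP17A1 also held theca and stroma markers. The summed level of 12 such markers was 5569 CPM in stage 1 gilt 201 oocyte 1 and 1638 CPM in stage 1 gilt 205 oocyte 1, against a median of 150 CPM over all stage 1 oocytes. Over the 9 oocytes with a CYP17A1 count the marker level ran from 12.9 to 5569 CPM with a median of 147, against 0.128 to 2309 CPM with a median of 33.9 over the 46 without one, so the ranges overlapped. By stage, the marker level was 1048 ± 915, 88.9 ± 140, 130 ± 144 and 180 ± 296 CPM at stages 1 to 4 (SD, n = 4 gilts) and 229 ± 246 CPM at stage 5 (n = 3). The same 2 oocytes held 1061 (gilt 201) and 1316 CPM (gilt 205) of granulosa and cumulus markers, against a stage 1 median of 63.6. For blood, immune and endothelial markers they held 494 and 160 CPM, against 39.6. Stage 1 gilt 803 oocyte 1 and gilt 801 oocyte 3 had 2508 and 2309 CPM of theca and stroma markers, with 3 and 0 CYP17A1 counts. The part of theca, stroma or other somatic RNA in the stage 1 levels was not tested.

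**Figure D3:**
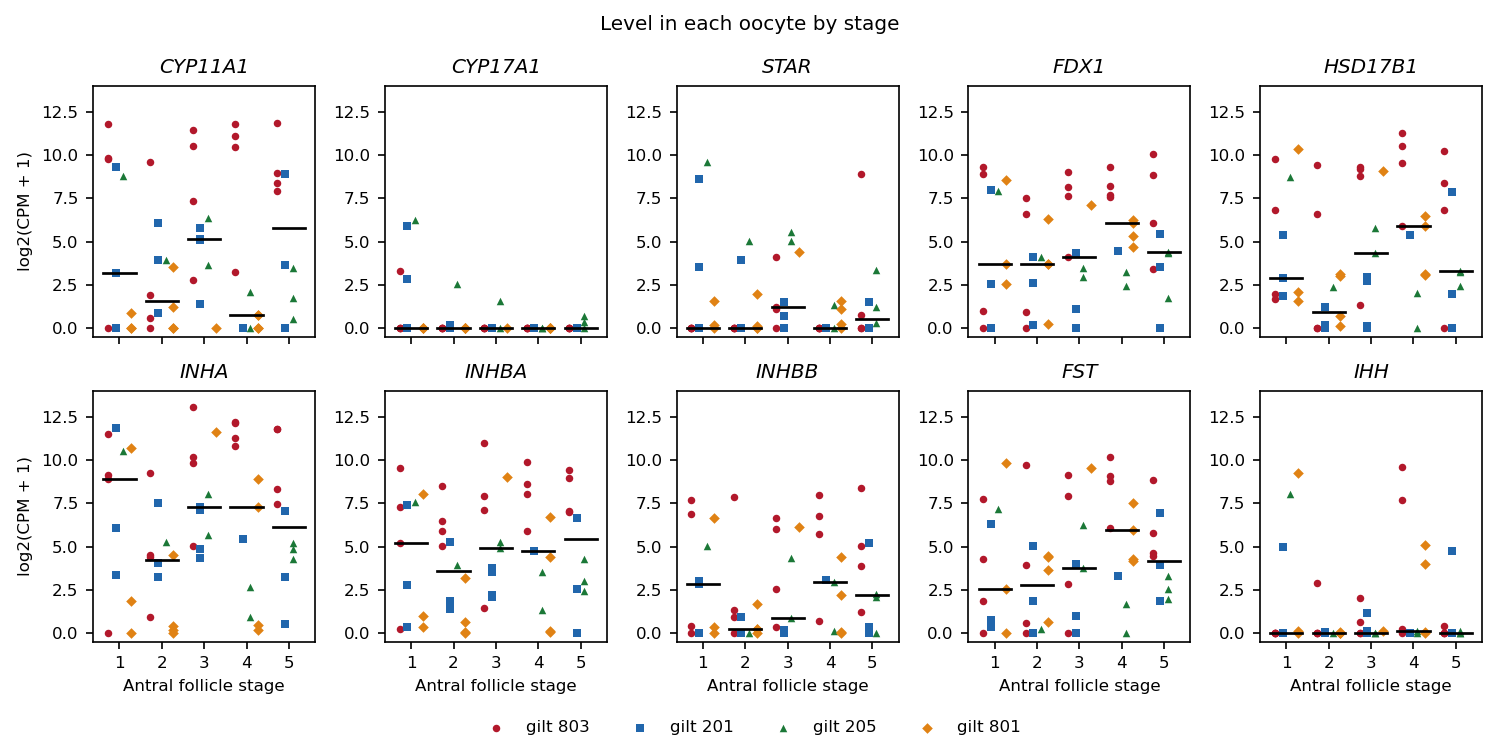
Level of each gene as log2(CPM + 1) in every oocyte by antral follicle stage, with symbols and colours for the 4 gilts and a bar at the median oocyte of each stage. CYP17A1 and STAR have their highest oocytes at stage 1 with medians at or near 0, and the other genes spread over most of the scale within a stage.

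HSD17B1 (ENSSSCG00000035147), which turns estrone into estradiol in granulosa cells, ranged from 0 to 2533 CPM over the oocytes with a median of 7.78. Its highest oocytes were stage 4 gilt 803 oocyte 4 at 2533 CPM, stage 4 gilt 803 oocyte 2 at 1471, stage 1 gilt 801 oocyte 3 at 1315 and stage 5 gilt 803 oocyte 2 at 1228. The mean was 559 ± 378 CPM in gilt 803, 27.1 ± 31.5 in gilt 201, 95.4 ± 187 in gilt 205 (SD, 5 stage sums each) and 198 ± 244 in gilt 801 (4 sums). By stage the means were 252 ± 177, 124 ± 242, 251 ± 272 and 322 ± 600 CPM at stages 1 to 4 (SD, n = 4 gilts) and 133 ± 162 CPM at stage 5 (n = 3), with overlap throughout. The stage 2 mean was 16.8 ± 27.3 CPM and the stage 5 mean 62.4 ± 49.5 CPM without gilt 803 oocyte 2, the stage 3 mean 158 ± 241 CPM without gilt 801 oocyte 1 (n = 3), and the stage 4 mean 191 ± 337 CPM without gilt 803 oocyte 4. HSD17B1 was present in gilt 801, where CYP11A1 was nearly absent.

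INHA (ENSSSCG00000020771) encodes the alpha subunit that makes a beta subunit into inhibin. Its level spanned 0 to 8602 CPM, the highest in stage 3 gilt 803 oocyte 2, and the median oocyte had 50.6 CPM. In gilt 803 the stage sums were 313, 419, 4397, 3399 and 1565 CPM at stages 1 to 5. In gilt 201 they were 1290, 42.1, 78.2, 42.9 and 46 CPM, in gilt 205 1493, 36.8, 145, 3.23 and 28.4 CPM, and in gilt 801 292, 5.85, 3184 and 73.6 CPM at stages 1 to 4. Gilts 201 and 205 were highest at stage 1 and gilt 801 at stage 3, in gilts 205 and 801 from 1 oocyte each. In gilt 201, oocyte 1 held 38677 of the 39622 INHA counts of stage 1. The other stage 1 oocytes of gilt 201 had 67.1 and 9.14 CPM, below its stage 3 sum. Gilt 803 was highest at stage 3 with all oocytes, but without stage 3 oocyte 2 that sum was 606.5 CPM and stage 4 was its highest. Without the 3 alike oocytes, gilt 801 had 9.96 CPM at stage 2 and 279 CPM at stage 4. Over the gilts the mean was 847 ± 634, 126 ± 196, 1951 ± 2181 and 879.6 ± 1680 CPM at stages 1 to 4 (SD, n = 4) and 546 ± 882 CPM at stage 5 (n = 3). Neighbouring stages overlapped in every case, and the stage 1 mean was 536 ± 649 CPM without gilt 201 oocyte 1. Without gilt 803 oocyte 2 the stage 2 mean was 24.8 ± 17.4 CPM and the stage 3 mean 1003 ± 1472 CPM, and without gilt 803 oocyte 1 the stage 5 mean was 358 ± 556 CPM. Of the 49 means of a gene at a stage that were above 0, 43 moved by over 1.5 times when some 1 oocyte was left out.

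INHBA (ENSSSCG00000035077), the beta A subunit of activin A and inhibin A, had 278, 266, 1029, 412 and 317 CPM at stages 1 to 5 in gilt 803. The sums were 59.1, 8.53, 7.21, 25.6 and 32.5 CPM in gilt 201, 188, 14.3, 32.3, 6.01 and 10.8 CPM in gilt 205, and 46.6, 1.47, 512 and 13.7 CPM at stages 1 to 4 in gilt 801. A single sum of another gilt, stage 3 of gilt 801, exceeded the lowest of gilt 803. Without its highest oocyte, the gilt 803 sum was 9.52 CPM at stage 1 (oocyte 4), 52 at stage 2 (oocyte 2) and 122.5 at stage 3 (oocyte 2). Without the 3 alike oocytes, gilt 801 had 2.5 CPM at stage 2 and 51.9 CPM at stage 4. INHBB (ENSSSCG00000038610), the beta B subunit, was lower in counts, with a mean of 89.7 ± 43.8 CPM in gilt 803, 4.58 ± 4.91 in gilt 201, 9.21 ± 12.7 in gilt 205 (SD, 5 stage sums each) and 22.6 ± 32.3 in gilt 801 (4 sums). FST (ENSSSCG00000016892), which encodes follistatin, averaged 320 ± 246 CPM in gilt 803, 17.9 ± 16.6 in gilt 201, 38.2 ± 61.5 in gilt 205 and 241 ± 344 in gilt 801. The gilt 801 mean of FST rested on stage 3, at 749 CPM from 1 oocyte, and on stage 1, where oocyte 3 had 901 CPM. In gilt 803, stage 2 oocyte 2 held 5915 of the 5932 FST counts and 1600 of the 1604 INHBB counts of that stage. Without it the edgeR adjusted p of the gilt 803 comparison was 0.581 for FST and 0.341 for INHBB.

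On the length-scaled values, INHA exceeded the sum of INHBA and INHBB in 45 of the 48 oocytes with at least 30 counts over these 3 genes. The log2 ratio of alpha to beta had a median of 4.15 and ran from -3.78 to 8.08 over the 47 oocytes with both above 0. Stage 5 gilt 201 oocyte 2 had no beta value and was left out, so the gilt 201 median is over 13 oocytes. The gilt medians were 4.14 in gilt 803, 5.38 in gilt 201, 3.61 in gilt 205 and 4.46 in gilt 801. INHBA exceeded INHBB in 42 of those 48 oocytes, and FST exceeded the beta subunits together in 32. These are ratios of transcripts within an oocyte and say nothing of protein.

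INHA and CYP11A1 parted in gilt 801. Of the oocytes with 100 CPM or more of INHA, 14 of 15 in gilt 803 also had 100 CPM or more of CYP11A1, as did 1 of 5 in gilt 201, 1 of 2 in gilt 205 and 0 of 4 in gilt 801. All 4 of gilt 801 had under 1 CPM of CYP11A1, among them stage 3 oocyte 1 with 3184 CPM of INHA and 0 CYP11A1 counts, and stage 1 oocyte 3 with 1676 CPM of INHA and 0.8 CPM of CYP11A1. Those libraries had 6008 and 6840 CPM of granulosa and cumulus markers, above the median of 1492 CPM in gilt 803. The gilt 803 exception was stage 4 oocyte 4, with 2476 CPM of INHA and 8.3 CPM of CYP11A1. The reverse case, CYP11A1 without INHA, was seen in stage 5 gilt 201 oocyte 3, at 489 CPM of CYP11A1 and 0.412 CPM of INHA. These oocytes were singled out after their values were seen.

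**Figure D4:**
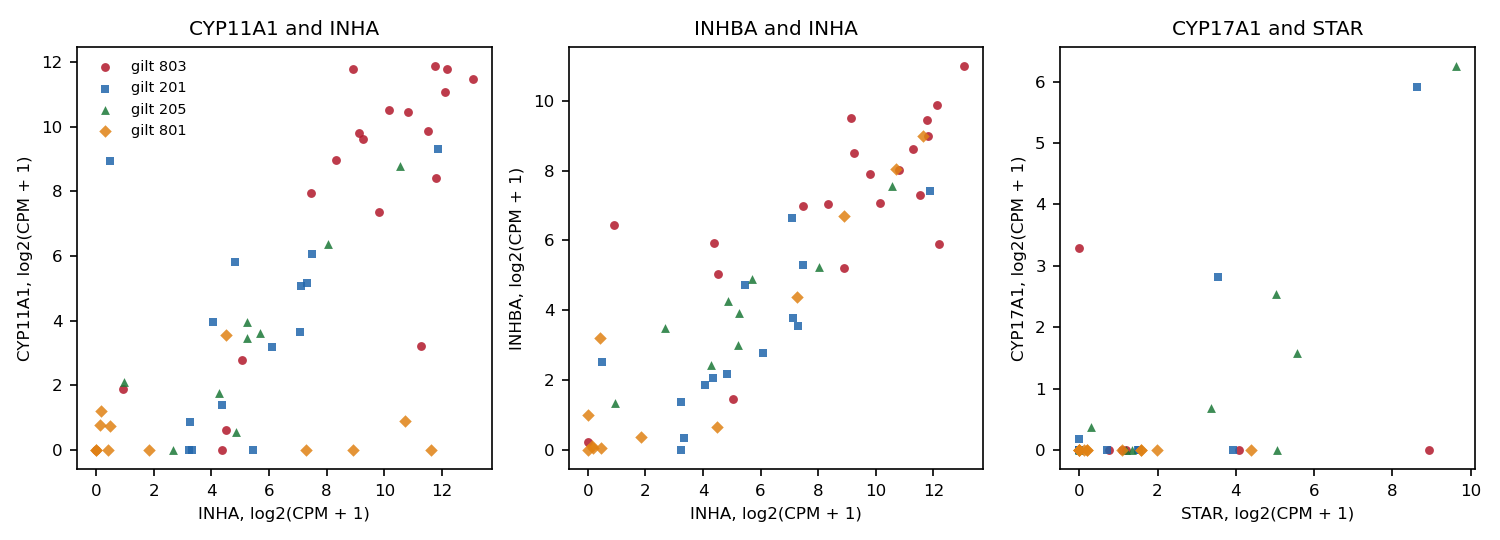
Levels of gene pairs, as log2(CPM + 1), in each of the 55 oocytes, with symbols and colours for the gilts. CYP11A1 against INHA shows 4 oocytes of gilt 801 with high INHA and CYP11A1 near 0, INHBA against INHA forms 1 band in all gilts, and CYP17A1 against STAR shows 2 stage 1 oocytes apart from the rest.

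IHH (ENSSSCG00000016204), the hedgehog ligand, had counts in 22 oocytes, and 50.1% of its 26762 counts lay in stage 4 gilt 803 oocyte 4, at 775.9 CPM. The next oocytes were stage 1 gilt 801 oocyte 3 at 613 CPM, stage 1 gilt 205 oocyte 1 at 258 and stage 4 gilt 803 oocyte 3 at 204. Stages 2 and 3 held 9 and 37 counts in all. Its means over the gilts were 93.6 ± 119, 0.182 ± 0.34, 0.185 ± 0.203 and 70 ± 135 CPM for stages 1 to 4 (SD, n = 4), and 2.78 ± 4.74 CPM for stage 5 (n = 3). The stage 1 mean was 38.9 ± 58.8 CPM without gilt 205 oocyte 1, and the stage 4 mean was 19.5 ± 34.6 CPM without gilt 803 oocyte 4. The stage 5 mean was 0.029 ± 0.0343 CPM without gilt 201 oocyte 1. The fitted change was -12.85 ± 2.94 for stage 2 against stage 1 (edgeR adjusted p = 0.692), 6.06 ± 2.50 for stage 4 against stage 3 (0.998) and -7.00 ± 3.02 for stage 5 against stage 1 (0.904). The stage 2 difference was called without gilt 803 (-13.67 ± 2.44, adjusted p = 0.00614), whose stage 1 oocytes had no IHH count, and by DESeq2 (-13.60 ± 1.98, 6.16e-09). The stage 5 change ran from -13.08 without gilt 201 to -3.13 without gilt 205.

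None of the 10 genes passed the edgeR threshold in a stage comparison, nor did any of the 15637 genes tested apart from 2 genes, 0.0128%, that were lower in the trend. In the F test over all stages 0 of 10 were called, beside 0.0% of all genes, with 5 of 10 at an unadjusted p under 0.05, beside 5.37% of all genes. DESeq2 called IHH there and limma-voom called 0 of the 10. For stage 2 against stage 1, 0 of 10 were called and 5 of 10 were at an unadjusted p under 0.05, beside 6.61% of all genes. DESeq2 called IHH and limma-voom none. All 10 fitted changes were negative there, with a median of -2.69, beside 9847 negative of 15637 genes and a median of -0.50. The sign of CYP11A1, at -0.43 ± 1.57, turned without gilt 201 (0.73) or gilt 205 (0.75), with each oocyte as a library (1.67) and without the 3 alike oocytes (1.09). INHA had -3.31 ± 1.13, HSD17B1 -3.25 ± 1.28 and FDX1 -1.72 ± 0.729. In the same comparison 9 of 9 granulosa and cumulus markers and 10 of 11 theca and stroma markers were negative, with medians of -2.9 and -3.28. Their part in the changes of the 10 genes was not tested.

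For stage 3 against stage 2, 8 of the 10 fitted changes were positive with a median of 2.38, beside 0.17 over all genes, and 4 had an unadjusted p under 0.05, beside 4.66% of all genes. INHA had 3.87 ± 1.28, INHBA 3.03 ± 1.05, FST 3.38 ± 1.31 and HSD17B1 3.05 ± 1.3. edgeR and limma-voom called 0 of 10, and DESeq2 called INHA. For stage 4 against stage 3, 9 of 10 were negative with a median of -1.56, beside -0.12 over all genes, and 5 had an unadjusted p under 0.05, beside 4.13%. INHA had -3.66 ± 1.27, INHBA -2.91 ± 1.04 and FST -3.14 ± 1.28. Again edgeR and limma-voom called 0 of 10, and DESeq2 called STAR. For stage 5 against stage 4 the median was 0.85, beside 0.16, and STAR was the 1 gene at an unadjusted p under 0.05, beside 2.98%. It was also the 1 called by DESeq2, while edgeR and limma-voom called 0. Each of these neighbouring comparisons shares a stage with the next, so their signs are not independent of each other.

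For stage 5 against stage 1 the comparison spans the whole series. edgeR and limma-voom called 0 of 10, DESeq2 called IHH, and 3 of 10 had an unadjusted p under 0.05, beside 5.37% of all genes. Those were CYP17A1, IHH and INHA (-2.71 ± 1.28). The median of the 10 genes was -0.64, beside -0.27 over all genes. For the 7 other genes the sign of the change turned under at least 1 alternative, so no direction is given for them. In the trend, edgeR and limma-voom called 0 of 10 and CYP17A1 was the 1 gene at an unadjusted p under 0.05, beside 5.76% of all genes. Counts were also simulated with 1 spread for all genes, the common biological coefficient of variation of 1.24, and no other gilt or stage effects. The changed genes had means over 10 CPM. On these counts the edgeR test found 0 of 100 genes that differed 4-fold between stage 5 and stage 1, and 0 of 100 that differed 16-fold. For gilt 803 against the others it found 2 of 100 and 32 of 100. A stage change of any of these sizes could therefore be missed here.

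Across the 55 oocytes, which share gilts and differ in depth, Pearson's r of log2(CPM + 1) with the granulosa and cumulus sum was 0.874 for INHBA, 0.787 for HSD17B1, 0.772 for INHA, 0.763 for FST and 0.737 for INHBB. For FDX1 it was 0.677, for CYP11A1 0.574, for IHH 0.439, for CYP17A1 0.111 and for STAR 0.098. With the theca and stroma sum, INHBA had 0.687, INHA 0.664, HSD17B1 0.571, INHBB 0.565, CYP11A1 0.562, FST 0.496, FDX1 0.493, IHH 0.471, CYP17A1 0.419 and STAR 0.315. CYP17A1 and STAR, known from theca cells, thus had the lowest values with both sums. Over the 35 oocytes outside gilt 803, CYP17A1 had 0.62 with the theca sum and 0.345 with the granulosa sum, and STAR had 0.56 and 0.372. Within pairs, INHA and INHBA had 0.867, FDX1 and HSD17B1 0.852, CYP11A1 and INHA 0.695, CYP17A1 and STAR 0.656 and CYP11A1 and CYP17A1 0.242. The relation of CYP11A1 to INHA was 0.826 over the 20 oocytes of gilt 803 and 0.394 over the 35 others. That of CYP17A1 to STAR was -0.089 in gilt 803 and 0.833 over the others, where it leans on 2 stage 1 oocytes. These values describe the oocytes and carry no test.

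The genes most like each member, by Pearson's r of log2(CPM + 1) over the 19 sums of gilt and stage, were of different kinds. ANXA1, an annexin, was most like CYP11A1 (0.909), and GSTA4, a glutathione transferase, followed INHBA (0.915) as most like INHA (0.896). ECM2 (0.943), DES, the muscle filament desmin (0.918), and COL6A1, a collagen chain (0.915), were near CYP17A1, at means of 0.864, 0.586 and 3.96 CPM. STAR was most like FAM43A (0.801) and CYP17A1 (0.787). HSD17B1 was most like ACTR3, an actin nucleator subunit (0.964), and also like INHBB (0.946). FST was most like ID2 (0.953) and SERPINE2, a granulosa marker used above (0.944). FDX1 was near ribosomal proteins such as RPL36A (0.96), INHBA near PKM, a glycolytic enzyme (0.951), and IHH near LRRN1 (0.958) at a mean of 3.4 CPM.

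Of other genes in these pathways, none was called by edgeR between stages. Among 23 tested genes of steroid synthesis, cholesterol supply and their regulators, 7 were called higher in gilt 803 and 0 lower, beside 4.4% and 0.281% of all genes. Among them were SCARB1, the HDL receptor, POR, the electron donor of CYP17A1, TSPO and STARD4, which handle cholesterol, and GATA6 and NR5A2, transcription factors of steroid-making cells. NR5A2 was also on the granulosa and cumulus marker list used above. In the fit without the granulosa-rich oocytes edgeR called 7 of 14660 genes for gilt 803. The genes of this and the other pathway lists were not followed there. STARD4 had 70.9 ± 58 CPM in gilt 803, against 0.33 ± 0.724 in gilt 201, 2.07 ± 2.84 in gilt 205 and 4.34 ± 7.64 in gilt 801, a difference of 6.39 ± 1.26 log2 units (edgeR adjusted p = 0.00317). POR had 170 ± 160, against 3.47 ± 5.58, 15 ± 24.3 and 26 ± 10.7 CPM in gilts 201, 205 and 801, a difference of 3.58 ± 0.717 (adjusted p = 0.0035). HSD17B7 and CYB5A, 2 of the 3 most abundant genes of this list, were not called, at 0.38 ± 0.615 and 0.94 ± 0.695.

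For the same comparison, beside 4.4% of all genes called higher and 17.3% at an unadjusted p under 0.05, the other lists were as follows. Among 11 tested genes of gonadotropin, sex steroid and AMH signalling, 3 were called higher in gilt 803: FSHR, the receptor of follicle-stimulating hormone (4.76 ± 1.23), PGRMC1, a progesterone-binding membrane protein (5.23 ± 1.02), and INSL3, a theca hormone (6.37 ± 1.74). FSHR was also on the granulosa and cumulus marker list used above, and INSL3 on the theca and stroma list. FSHR had 187 ± 115 CPM in gilt 803, against 10.2 ± 13.3 in gilt 201, 20.8 ± 45 in gilt 205 and 46.3 ± 50.5 in gilt 801. INSL3 was at 39.8 ± 38.9 CPM in gilt 803, where CYP17A1 had 3 counts in all. Of 13 tested activin receptors, binding proteins and transducers, SMAD2, a receptor-activated transducer, was the 1 called higher (2.29 ± 0.564). FSTL3, a follistatin-like binder of activin, had 1.71 ± 0.553 (adjusted p = 0.079) and SMAD4, the common transducer, 1.58 ± 0.915. Of 14 tested hedgehog receptors and transducers, 0 were called by edgeR, with 1 at an unadjusted p under 0.05. The most abundant of them, HHAT, which adds palmitate to hedgehog ligands, HHIP, which binds them, and BOC, a co-receptor, had -1.18 ± 0.626, -1.01 ± 0.607 and -0.64 ± 0.875. HHIP had counts in 51 oocytes and HHAT in 50, whereas IHH had counts in 22. CYP19A1 and HSD3B1 were not analysed here.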

How the data were processed

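The authors deposited raw counts per Ensembl gene ID, 1 column per oocyte, and a second table named for TPM whose column sums differ from 40073 to 2990163; its values, of unit other, are called length-scaled here and were used only to rank genes within an oocyte (23498 genes, 2382 missing). The tools, per the submitters' processing notes, include HISAT2 2.1.0, Trim Galore 0.4.3, StringTie 1.2.2 and featureCounts. The sources used here name neither a genome build nor whether counting used strand: no positions are printed, and overlapping antisense transcripts cannot be told apart. A total of 11023 IDs have no symbol.

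The replicate is the gilt. Counts were summed within each gilt at each stage (19 sums). The main test was edgeR 4.0.16 under R 4.3.3 (TMM, filterByExpr by stage, glmQLFit, glmQLFTest; stage and gilt in the model; Benjamini-Hochberg adjusted p under 0.05, two-sided). It tested 15637 genes, all 10 members included; the common biological coefficient of variation was 1.24. Printed levels are CPM without TMM; fitted changes are log2 ± SE. The members, lists, markers and comparisons were chosen with earlier results of these data known. Pathway genes are named when called, or when among the 3 most abundant of their list. 1 pathway gene that the rule names is not reported here. Gilt stays in the model because the labels name the animals. Deviations from the stage means correlated at a mean r of 0.133 within gilt 803, 0.0124 within 201, 0.136 within 205 and 0.141 within 801. Between gilts the mean r was -0.0937. Taking out the stage mean pushes different gilts of the same stage to negative values, so this contrast cannot decide on the block. Limits at 0 counts (3 counts) cover counting error only, because reads copied by PCR, with no molecular identifiers, do not count molecules independently. Alternatives used limma 3.58.1 and DESeq2 1.42.0. The fit was tested on simulated data.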

Additional observations from a re-analysis of the deposited data

Results flagged for a closer look

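In 6 of the 40 groups of 4 gilts, Dixon's test for 1 outlying value flagged 1 gilt on the log2(CPM + 1) scale. Its rate of about 1 group in 20 by chance assumes independent, normally distributed values. These groups share sums and many sums are at 0, so the 6 cannot be set against that rate. At stage 3 only gilt 205 had CYP17A1 counts, so any level was flagged. At stage 4 no gilt had any, so none could be flagged. CYP11A1 was at 0.146 CPM in gilt 801 at stage 1, below the other gilts, and at 1759 CPM in gilt 803 at stage 4, above them. INHBB reached 158.5 CPM and IHH 0.692 CPM in gilt 803 at stage 2, each above the other gilts. Each of these sums rested on a single oocyte. Oocyte 2 held 1600 of the 1604 INHBB counts and oocyte 1 all 7 IHH counts. CYP17A1 was above the other gilts in gilt 205 at stage 2 (4.79 CPM) and at stage 3 (0.883 CPM), sums of 1 and 2 oocytes.

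STAR was present in the length-scaled table, which the tests did not use, in 26 oocytes with 0 STAR counts. Over oocytes with at least 20 counts, the log2 ratio of the tables had an SD of 2.415 for STAR, against 0.307 to 0.951 for the other 9 genes.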

How the results depend on the processing

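Of the 10 genes, edgeR called 2 among gilts and 3 for gilt 803. Without a low-count filter these became 9 and 8, beside 4.06% and 5.02% of all genes, and without the granulosa-rich oocytes 0 and 0, beside 0.0955% and 0.0477%. DESeq2 called 2 and 8, beside 6.43% and 15.9%; STAR was lower among each 8, the others higher. Among gilts the count was 1 with no replicate block (there, no stage term), beside 1.47% of all genes. It was 1 with each oocyte as a library (beside 7.25%) and 1 without the 3 alike oocytes (1.57%). With 1 gilt or 1 oocyte left out the count ran from 0 to 6 among gilts and from 1 to 7 for gilt 803. With 1 gilt left out, 0.17% to 3.35% of all genes were called among gilts and 0.736% to 4.88% for gilt 803. The share of all genes with 1 oocyte left out was not kept. Between stages, where edgeR called 0, no filter gave 4 in the F test, beside 0.938% of all genes. It gave 3 for stage 2 against 1 (beside 0.482%) and 1 for stage 3 against 2 (0.126%). For stage 4 against 3 it gave 2 (0.0608%) and for stage 5 against 4 it gave 1 (0.0174%). DESeq2 gave 1 in each stage comparison, the trend and the F test, beside 0.301% to 2.65% of all genes. Each oocyte as a library gave 1 in the F test, beside 0.282% of all genes. With 1 gilt left out the F test gave 0 to 3 and stage 2 against 1 gave 0 to 1, beside at most 0.283% and 0.315% of all genes. The replicate block, gilt in the model, changed no call of the 10 genes between stages. Over all genes, the trend had 2 calls with it and 0 without. Signs for gilt 803 turned without the granulosa-rich oocytes for FDX1 (-1.03), HSD17B1 (-1.59), INHA (-2.26) and FST (-0.96), and with limma-voom for IHH (-0.26). For CYP11A1, stage 2 against 1, the sign turned to 1.67 with oocytes as libraries, 1.09 without the 3 alike oocytes, and with 1 gilt left out the value ran from -2.08 to 0.75. The causes of these shifts were not tested. Stage levels by the median oocyte moved by more than the SD for CYP11A1 (8.02 CPM), FDX1 (12.2), HSD17B1 (6.34) and FST (4.75) at stage 1. Levels from the length-scaled table were not run, since its scale per oocyte is not stated, and gilt 803 has no contrast without itself. Shallow depth (3 oocytes under 1000000 counts) and many oocytes at 0 limit CYP17A1, STAR and IHH.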
